A study of Mus musculus with 19 samples.

Results

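The genes described here are the variable (V) gene segments of the alpha and beta chains of the T cell receptor (TCR), taken from single thymocytes of mice whose TCR was either fixed by a transgene or left diverse. Every gene whose symbol starts with Trav or Trbv was a member, which gave 163 of the 28692 genes counted: 128 Trav segments and 35 Trbv segments. The antibodies to TCR V regions in the same panel of 111 surface antibodies were read beside them. A row for a Vβ13.1 antibody, listed in the third experiment alone, held 1 to 8 UMIs per lane and was not used. RNA and antibody tags were counted as unique molecular identifiers (UMIs, each standing for 1 captured molecule) by CITE-seq in 19 lanes from the thymi of 17 female mice aged 4 to 8 weeks.

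The 9 mice with diverse receptors were 5 wild-type C57BL/6 mice, 2 MHCI-/- mice (B2m-/-, without surface MHC class I) and 2 MHCII-/- mice (H2-Ab1-/-, without MHC class II). The 8 mice with fixed receptors were 2 each of AND and OT-II, whose receptors recognise MHC class II, and of F5 and OT-I, whose receptors recognise MHC class I. AND and F5 mice carried the receptor transgenes on a Rag1-/- background, in which endogenous TCR genes cannot rearrange, while OT-I and OT-II mice kept Rag1. The F5 transgenes are driven by CD2 regulatory sequence, not by the TCR loci. Sorting and site differed as well. Wild-type replicates 1 to 3 (WT r1 to r3) and the MHC-deficient mice were sorted as CD5+TCRB+ cells, and WT r4 and r5 and all transgenic mice were not sorted. WT r4, WT r5, OT-I and OT-II came from the third experiment, at another site. WT r1, AND r1 and F5 r1 came from the first experiment and the rest from the second. Genotype, sort and site can therefore not be fully told apart, and the replicates of AND and of F5 differ in experiment.

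In developing thymocytes, V, diversity and joining segments are cut and joined by the RAG recombinase, the beta chain first and the alpha chain at the CD4+CD8+ double-positive (DP) stage, where alpha rearrangement can repeat with V segments progressively farther from the J segments. The V segment encodes the first part of the variable domain, with the loops that touch MHC. Cells whose receptor recognises MHC class II mature as CD4 single-positive (SP) cells and those that recognise class I as CD8 SP cells. The V exon lies at the far 5′ end of the receptor transcript and the kit counts 3′ ends, so V segment reads were sparse.

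Of 85389 barcodes, 68872 cells were kept, and the median cell of a lane held 1501 to 7205 RNA UMIs. Median antibody UMIs per cell ranged from 1100 to 6581. Lanes held between 9893333 and 43303999 RNA UMIs, and at most 1.27% of the barcodes of a lane were shared with another lane. The lowest antibody depth was that of AND r2 (median 1100), and the lowest RNA depth that of the lanes of WT r5. The loci gave 30020 Trav and 20852 Trbv UMIs, 212 to 4973 and 218 to 3806 per mouse. Between 16.3% and 40.7% of cells of a diverse mouse had at least 1 Trav UMI and 16.2% to 25.7% at least 1 Trbv UMI. Among cells of diverse mice with 2 or more Trbv UMIs, all of them came from a single segment in 47.4% to 62.3%, and the remaining cells held UMIs of more than 1 segment.

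The Trav members span chr14:52427928-53977678 and the Trbv members chr6:40891229-41558452 (GRCm38/mm10). By the annotation 33 of the 163 are pseudogenes. No UMI was counted in any mouse for 28 Trav and 6 Trbv segments. The central part of the mouse Trav locus is repeated, and 39 members carry a d and 34 an n in their symbol for these copies. Every 90-base window of the exons of 38 Trav members was also found in another member, and all 38 had fewer than 10 UMIs. In contrast, 23 Trav members had only windows of their own, and 1 of them had fewer than 10 UMIs. All 35 Trbv members had only windows of their own. Whether reads of near-identical copies were discarded was not tested, and values of Trav segments with shared windows, such as Trav16n (61.2% unique) and Trav6-7-dv9 (69.3%), are uncertain to that extent.

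The beta segments on which the results turn lie next to each other, in the order Trbv12-1, Trbv13-1, Trbv12-2, Trbv13-2. Trbv12-2 and Trbv12-1 encode Vβ5.1 and Vβ5.2, read by the antibody TCRVb5.1_5.2, and Trbv13-3, Trbv13-2 and Trbv13-1 encode Vβ8.1, Vβ8.2 and Vβ8.3, of which the antibody TCRVb8.1_8.2 reads the first pair. Trbv13-2 starts 2.03 kb after the end of Trbv12-2, and Trbv13-1 starts 1.94 kb after Trbv12-1. The V exons of these members, read 5′ to 3′ from the GRCm38 genome (RefSeq) on the plus strand, are shown because they separate the fixed receptors and the antibody targets. They are Trbv12-1 at chr6:41113775-41114067, Trbv12-2 at chr6:41119072-41119364, Trbv13-1 at chr6:41116178-41116468, Trbv13-2 at chr6:41121539-41121832 and Trbv13-3 at chr6:41130292-41130585. Capitals mark bases that differ between members of the same family.
Trbv12-1: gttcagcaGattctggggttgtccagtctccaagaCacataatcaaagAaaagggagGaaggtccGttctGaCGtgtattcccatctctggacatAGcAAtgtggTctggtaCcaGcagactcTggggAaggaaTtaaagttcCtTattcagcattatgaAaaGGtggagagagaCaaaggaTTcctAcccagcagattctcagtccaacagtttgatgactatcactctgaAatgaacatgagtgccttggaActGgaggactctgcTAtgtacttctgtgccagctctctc
Trbv12-2: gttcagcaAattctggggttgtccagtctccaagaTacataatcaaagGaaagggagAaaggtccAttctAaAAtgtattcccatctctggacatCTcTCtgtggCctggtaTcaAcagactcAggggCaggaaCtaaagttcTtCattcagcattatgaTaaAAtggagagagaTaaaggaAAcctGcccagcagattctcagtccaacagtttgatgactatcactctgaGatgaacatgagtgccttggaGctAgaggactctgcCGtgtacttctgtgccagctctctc
Trbv13-1: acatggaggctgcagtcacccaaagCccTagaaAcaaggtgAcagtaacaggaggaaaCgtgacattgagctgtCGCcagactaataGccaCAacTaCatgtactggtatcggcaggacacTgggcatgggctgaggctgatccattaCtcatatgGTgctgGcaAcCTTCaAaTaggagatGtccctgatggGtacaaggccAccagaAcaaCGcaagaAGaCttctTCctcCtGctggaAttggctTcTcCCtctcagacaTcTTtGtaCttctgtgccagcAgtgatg
Trbv13-2: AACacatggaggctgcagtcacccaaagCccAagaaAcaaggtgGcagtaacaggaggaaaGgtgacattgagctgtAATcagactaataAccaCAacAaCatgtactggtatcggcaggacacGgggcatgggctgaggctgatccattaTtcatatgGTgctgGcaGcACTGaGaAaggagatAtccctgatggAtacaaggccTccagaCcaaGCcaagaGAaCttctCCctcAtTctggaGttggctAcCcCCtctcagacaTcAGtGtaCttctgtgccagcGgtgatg
Trbv13-3: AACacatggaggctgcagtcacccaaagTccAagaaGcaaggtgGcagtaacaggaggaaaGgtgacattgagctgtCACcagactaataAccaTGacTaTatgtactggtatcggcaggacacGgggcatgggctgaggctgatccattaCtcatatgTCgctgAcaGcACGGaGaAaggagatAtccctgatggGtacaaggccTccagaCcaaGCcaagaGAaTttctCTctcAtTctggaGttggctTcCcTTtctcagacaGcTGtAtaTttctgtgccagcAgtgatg

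Trbv12-1 and Trbv12-2 are 89.1% identical over 293 aligned bases (32 differ), and the Trbv13 exons are 85.9% to 91.8% identical. Recombination signals follow each V exon, starting with a heptamer whose usual form is CACAGTG. That form stood directly after the V exon in 87 of 128 Trav members (68%) and 8 of 35 Trbv members (22.9%), while its first 3 bases, CAC, stood there in 85.9% and 88.6%. Below are the last 30 bases of the V exon and the next 39 bases, with the 7 bases after the exon in capitals, for 2 alpha segments that rose in mice with fixed receptors. Trav6-1 (chr14:52638933-52639001, plus strand) lies in the part of the locus farthest from the J segments, and Trav22 (chr14:53927566-53927634, plus strand), annotated as a pseudogene, lies 227.4 kb before the first alpha J segment.
Trav6-1: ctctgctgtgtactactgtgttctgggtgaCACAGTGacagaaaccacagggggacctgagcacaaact
Trav22: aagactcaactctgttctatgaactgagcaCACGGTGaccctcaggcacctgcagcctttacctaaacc

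In each fixed genotype 1 beta segment, of the family of its transgene, led the Trbv counts. In AND mice, Trbv26 (Vβ3, the beta segment of the AND receptor) held 91.2% and 96.7% of Trbv UMIs (208 of 228 and 558 of 577), against 1.69% to 12.8% (median 3.21%) in the 9 diverse mice. In F5 mice, Trbv16 (Vβ11) held 95% and 92.6% (207 of 218 and 523 of 565), against 2.29% to 4.91% (median 3.97%). The ranges of fixed and diverse mice did not overlap for either segment.

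OT-I and OT-II receptors both carry Vβ5, and the counts placed them on different members of the Trbv12 family. In OT-I mice, Trbv12-1 held 98.3% and 99.5% of Trbv UMIs (1708 of 1738 and 2814 of 2828). In OT-II mice, Trbv12-2 held 72.1% and 55.1% (919 of 1275 and 258 of 468), and Trbv12-1 held less in both than in any diverse mouse. The diverse mice had 1.74% to 7.3% Trbv12-1 and 4.47% to 17.8% Trbv12-2. In OT-I mice, 11 UMIs of Trbv12-2 were counted beside 4522 of Trbv12-1, whose V exons differ at the capitals shown.

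As CPM, the usual scaling of a segment's UMIs to a common number of RNA UMIs, over all kept cells of a mouse, Trbv26 was at 13.1 and 44.4 in AND mice, 16.2 in WT r5 and 0.53 to 3.17 in the other 8 diverse mice, so that AND r1 was below WT r5 on this scale. The log2 fold change of Trbv26 in AND against the mean of the diverse groups was 3.83 ± 0.50 (SE; edgeR quasi-likelihood test, adjusted p = 0.000806, 2 against 9 mice). Trbv16 in F5 mice was at 13.9 and 15.8 CPM, against 1.24 to 2.9 CPM in diverse mice, a log2 fold change of 2.89 ± 0.25 (edgeR adjusted p = 1.56e-05). In such sums, fewer cells with a segment and less RNA per cell cannot be told apart.

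Trbv12-1 in OT-I mice was at 62.2 and 220 CPM, against 0.74 to 9.23 in diverse mice (log2 fold change 6.03 ± 0.40, edgeR adjusted p = 1.08e-05). Trbv12-2 in OT-II mice was at 28.7 and 29.8 CPM, against 4.54 to 9.51 (2.30 ± 0.24, edgeR adjusted p = 8.7e-05). In both cases the fixed and diverse mice did not overlap. With only the 2 wild-type mice of the same site as controls, the values were 4.66 and 2.51, and neither passed the test (edgeR adjusted p = 0.0629 and 0.0909). The sample titles of that experiment number WT r4, OT-I r1 and OT-II r1 from 1 to 4 and WT r5, OT-I r2 and OT-II r2 from 8 to 11, and the mice of each run of numbers deviated together from their groups (correlations of 0.661 to 0.739 over genes). With these runs as a block, chosen after seeing the data, both segments were called, at 4.58 and 2.51 (edgeR adjusted p = 3.79e-10 and 4.61e-07). What the numbers stand for is not stated in the labels.

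**Figure D1:**
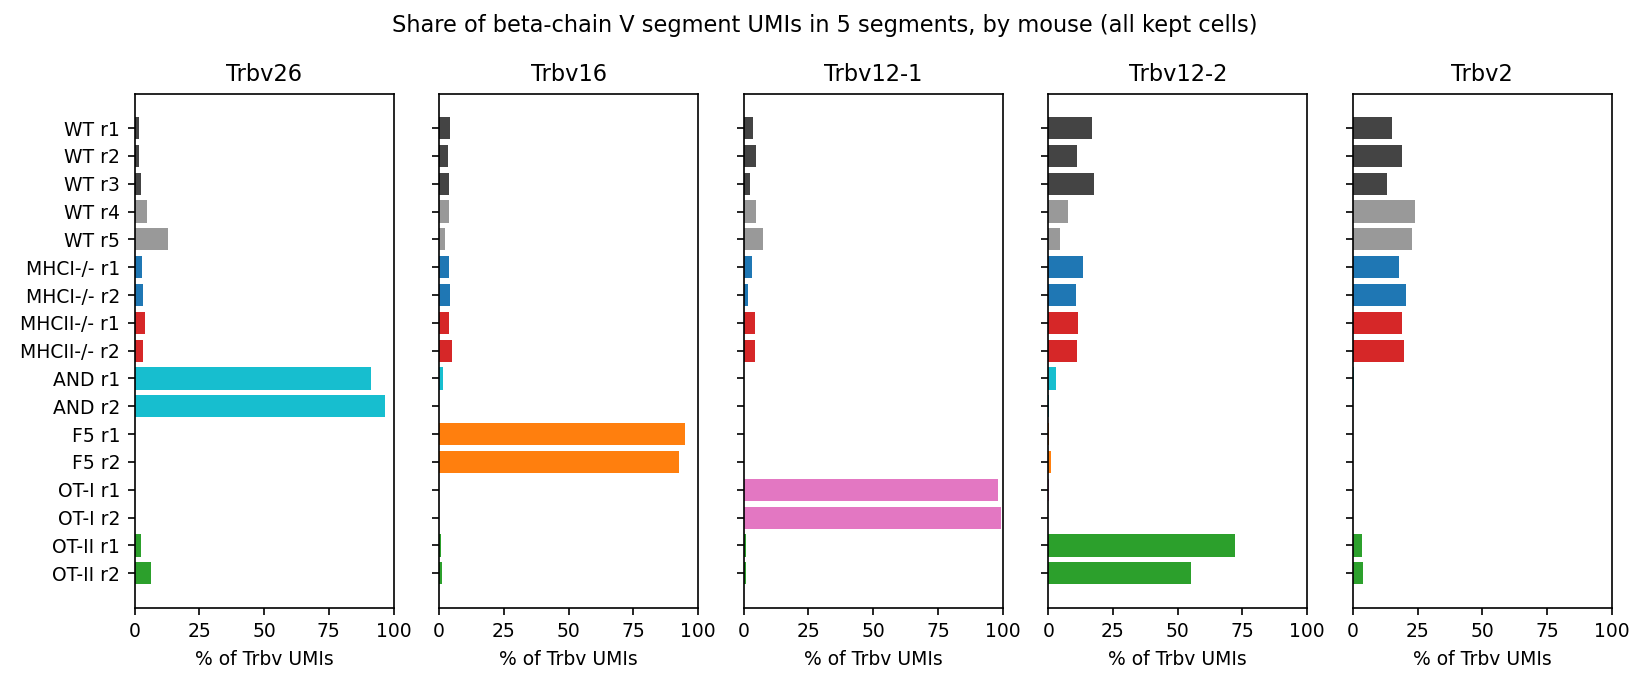
Share of Trbv UMIs (%, horizontal axis from 0 to 100) held by each of 5 beta segments in each of the 17 mice (bars, coloured by genotype, all kept cells). Trbv26 fills AND mice (91.2% and 96.7%), Trbv16 F5 mice (95% and 92.6%), Trbv12-1 OT-I mice (98.3% and 99.5%) and Trbv12-2 most of OT-II mice (72.1% and 55.1%), while Trbv2 holds 13.2% to 23.9% in the diverse mice.

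The beta segments outside the transgene were scarce in AND, F5 and OT-I mice and less so in OT-II mice. Trbv2, the segment with most UMIs in wild-type mice (1910), held 13.2% to 23.9% of Trbv UMIs in diverse mice. It gave 1 UMI over both AND mice, none in F5 mice, 1 over both OT-I mice and 66 over both OT-II mice (3.69% and 4.06%). It was called lower in AND, OT-I and OT-II (edgeR adjusted p = 4.16e-05, 2.03e-05 and 0.000719), with a log2 fold change of -2.65 ± 0.37 in OT-II. The single UMIs in AND and OT-I leave the size loose: per RNA UMI the ratio of diverse to AND mice was 346 (95% exact interval of counting error 62 to 13658) and that of diverse to OT-I mice 489 (87.8 to 19339). In F5 it was at least 194-fold lower, computed against a floor of 3 counts over the F5 mice. The 3 Trbv13 members fell in all 4 genotypes. In OT-II mice their log2 fold changes lay between -2.64 ± 0.44 (Trbv13-1) and -1.74 ± 0.51 (Trbv13-3, edgeR adjusted p = 0.0448), and in the other genotypes each was at 0 to 17 UMIs over both mice.

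Of the Trbv UMIs, 8.77% and 3.29% lay outside the transgene family in AND, 5.05% and 7.43% in F5, 1.27% and 0.389% in OT-I, and 27.1% and 44% in OT-II mice. In SP cells of OT-II mice the share outside Trbv12 was 33.1% and 61.3%, of only 121 and 75 Trbv UMIs. Of the CD4 SP cells of these mice, 97.7% and 97.3% were positive for TCRVb5.1_5.2. The share of UMIs is therefore not a share of cells without Vβ5 protein. The OT-I and OT-II mice had lower and higher shares, respectively, than the Rag1-/- mice, and the mean difference between the 4 Rag1-sufficient and the 4 Rag1-/- mice, 12.1 percentage points, did not pass an exact permutation test (two-sided p = 0.429, 70 arrangements). It was 3.46 points without OT-II r2, 17.7 without OT-I r1 and 18 without OT-I r2.

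Counts of the transgene's alpha family were high in F5 mice alone. In F5 mice, Trav6-1 was at 14.5 and 21.4 CPM, against 0.0905 to 0.729 in diverse mice (log2 fold change 5.81 ± 0.46, edgeR adjusted p = 2.18e-05), and held 44.6% and 56.2% of Trav UMIs. The Trav6 family, that of the F5 alpha chain (Vα4), held 66.5% and 71.6%. The AND alpha chain carries Vα11, of the Trav4 family, and Trav4 gave 2 of 212 and 1 of 316 Trav UMIs there. The sources used here do not say how the ends of the transgene transcripts are built, so low counts of the Trav4 or Trav14 family do not show that the V segment was not used.

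The OT-I and OT-II alpha chains carry Vα2, of the Trav14 family, which held 12.1% and 16.8% of Trav UMIs in OT-I and 9.06% and 11.7% in OT-II mice, against 12.8% to 19.7% in diverse mice. None of the Trav14 members was called higher in either genotype. Trav14-1 and Trav14-2 were lower in both, with log2 fold changes of -1.87 ± 0.36 and -1.77 ± 0.28 in OT-I and -1.29 ± 0.34 and -0.98 ± 0.26 in OT-II (edgeR adjusted p between 0.00149 and 0.0214). The constant segment Trac, shared by all alpha chains, was at 478 to 1171 CPM in diverse mice. Both AND mice (2981 and 3607) and both OT-II mice (8624 and 6440) were above that range. It was at 760 and 699 in F5 and 327 and 282 in OT-I.

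The segment that rose in more than 1 fixed genotype was Trav22, a pseudogene with 1 Trav segment, Trav23, and delta chain V segments between it and the alpha J segments. It was at 4.34 and 11.4 CPM in AND, 5.92 and 6.45 in F5, 5.72 and 2.34 in OT-I and 2.37 and 1.27 in OT-II mice, against 0.471 to 1.85 CPM in diverse mice. All fixed mice except OT-II r2 were above the diverse range. By edgeR, log2 fold changes were 3.08 ± 0.38 in AND (adjusted p = 0.000378), 2.69 ± 0.38 in F5 (adjusted p = 0.000699) and 2.11 ± 0.40 in OT-I (adjusted p = 0.00493). In OT-II the value was 0.91 ± 0.45 (edgeR adjusted p = 0.177). These 4 comparisons share their 9 control mice. With the same-site mice alone, the OT-I value was 1.68 and did not pass (edgeR adjusted p = 0.266), while with the block by title number it was 1.67 and passed (edgeR adjusted p = 0.00051). A 5-gene list of gamma-delta T cell markers summed to 333 to 760 CPM in fixed mice and 67.7 to 176 in diverse mice. All fixed mice were unsorted, while WT r1 to r3 and the MHC-deficient mice had been sorted for TCRB. One gene of the list, Trdc, went against Trav22 between the AND mice (414 and 253 CPM) and the F5 mice (424 and 379). It went with Trav22 between the OT-I (541 and 339) and the OT-II mice (199 and 140). The part of such cells and of the sort in the Trav22 values was not tested. The antibody to the gamma-delta receptor, TCRr-d, was at 15.7 and 27.8 per 10000 antibody UMIs in AND, 11.8 and 13 in F5, 2.47 and 5.23 in OT-I and 7.35 and 7.47 in OT-II mice, against 7.56 to 12.6 in diverse mice. It was thus above the diverse range in both AND mice and below it in both OT genotypes.

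Over the whole list, 85 members (64 Trav, 21 Trbv) passed the filter on low counts among 13240 genes tested. Of these 85, 69 were called in AND mice (2 higher and 67 lower), where 6.82% of all genes were called (3.87% higher, 2.95% lower). F5 mice had 75 called (3 higher and 72 lower) against 7.45% of all genes (2.27% higher, 5.18% lower). OT-I mice had 62 called (2 higher and 60 lower) against 12.3% (7.39% and 4.92%), and OT-II mice 32 (1 higher and 31 lower) against 16.0% (10.2% and 5.85%). A call is a Benjamini-Hochberg adjusted p under 0.05 over all genes tested. Members could pass the filter through the diverse mice alone. Of those tested, 36 Trav and 12 Trbv members were at 0 UMIs in AND, 34 and 14 in F5, and 18 and 10 in OT-I. Such members could only come out lower. The counts of lower calls and the median fold changes are therefore descriptions and not a test of direction.

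The median log2 fold change of the tested Trav members was -3.24 in AND, -3.86 in F5, -2.71 in OT-I and -1.37 in OT-II, with members at 0 UMIs set to their bound. That of the Trbv members was -3.87, -4.15, -4.43 and -1.56, and that of all genes between 0.003 and 0.030. As fitted, without the bounds, the Trav medians were -6.28, -6.04, -3.26 and -1.37 and the Trbv medians -6.95, -6.95, -6.82 and -1.56. Counts depended on single mice: without AND r1, 35 members were called in AND, without F5 r2, 48 in F5, without OT-I r1 or r2, 37 or 35 in OT-I, and without OT-II r1 or r2, 8 or 18 in OT-II. With wild-type mice of the same site only, 10 were called in OT-I and 0 in OT-II, where 0 of 13110 genes passed and 21 members were at an unadjusted p under 0.05 by edgeR. These counts rest on a fit without a block: with the block by title number, 54 members were called in OT-I (2 higher, 52 lower) and 24 in OT-II (1 higher, 23 lower). The share of all genes called is not given here for the block, the left-out mice or the same-site OT-I fit. Their counts of members can therefore not be set against it.

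Directions relative to the other V segments differed from those relative to all RNA for some members. All Trav segments together were at 13.3 and 25.2 CPM in AND mice, against 83.3 to 133 CPM in diverse mice. In AND mice Trav6-7-dv9 was lower (log2 fold change -1.76, edgeR adjusted p = 0.0256), but 0.75 when the Trav and Trbv UMIs alone were taken as the library size. Trav14d-3-dv8 was at 2.77 and 4.14 CPM there against 2.81 to 10.5 in diverse mice, and its log2 fold change of -0.75 ± 0.41 did not pass (edgeR adjusted p = 0.405), while with the locus as library size it was 1.76 and passed.

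The spread of V segment UMIs over segments was summarised with the inverse Simpson index. It is the number of segments with equal UMIs that would give the same chance of drawing the same segment from 2 UMIs. The index counts transcripts, which need not be those of a receptor. In AND mice, where endogenous TCR genes cannot rearrange, the pseudogene Trav22 led with 32.5% and 45.3% of Trav UMIs. For Trbv it was 10.4 to 12 in the 9 diverse mice and 1.01 to 3.14 in the 8 fixed mice. OT-I was lowest (1.04 and 1.01) and OT-II highest (1.9 and 3.14) among the fixed. The difference of mean log2 index was -3.08 (two-sided exact permutation p = 4.11e-05, which no arrangement of the 24310 can undercut), and the ranges did not overlap. As the fixed mice carry a beta transgene, the direction was largely set in advance by the genotype. All fixed mice were unsorted and most diverse mice sorted. The mice permuted here and for Trav thus also differ in sort and experiment.

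For Trav the index was 17.2 to 35.6 in diverse and 2.72 to 25.7 in fixed mice, a difference of -2.05 in mean log2 index (two-sided exact permutation p = 0.000123). Here the ranges overlapped. OT-II r1 (25.7) and OT-II r2 (17.7) lay above the lowest diverse mouse, WT r5 (17.2), while the AND (5.3 and 3.87), F5 (3.58 and 2.72) and OT-I mice (12.6 and 6.15) lay below it. Between 22 and 31 Trav segments were detected in AND and F5 mice, 42 and 52 in OT-I, 65 and 72 in OT-II, and 78 to 84 in diverse mice, numbers that also depend on depth.

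**Figure D2:**
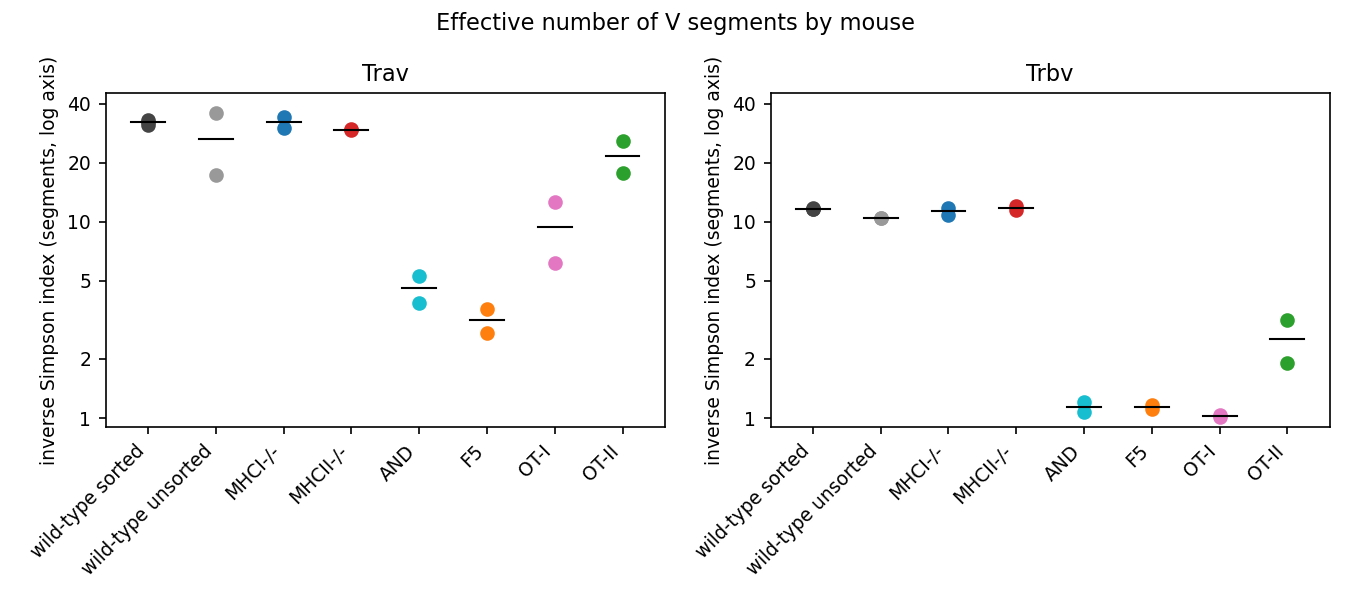
Inverse Simpson index of Trav (left) and Trbv (right) segments in each mouse (points, log axis), with a bar at the mean of each group. Trbv points of fixed mice sit between 1.01 and 3.14, below every diverse mouse (10.4 to 12), and OT-II Trav points (17.7 and 25.7) overlap with the diverse range.

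The V region antibodies gave the protein side of the same segments. TCRVb5.1_5.2 was at 165 and 131 per 10000 antibody UMIs in OT-I mice and 113 and 108 in OT-II mice, against 8.85 to 20.1 in diverse mice. It was at 3.14 and 12.1 in AND and 2.47 and 3.54 in F5 mice, whose receptors do not use Vβ5. The OT mice were above all diverse mice, and of the AND and F5 mice AND r2 alone lay within their range. Log2 fold changes were 3.90 ± 0.27 in OT-I (adjusted p = 1.08e-08), 3.24 ± 0.27 in OT-II (adjusted p = 1.12e-07), -1.88 ± 0.36 in AND (adjusted p = 0.00114) and -2.35 ± 0.38 in F5 (adjusted p = 0.000385, edgeR over 111 antibodies). Without TMM scaling the AND value was -0.88 (edgeR adjusted p = 0.0271). Called antibodies made up 41.4% of the panel in OT-I, 41.4% in OT-II, 38.7% in AND and 17.1% in F5.

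TCRVb8.1_8.2, whose targets none of the fixed receptors uses, was at 5.16 to 7.45 per 10000 in diverse mice, 1.25 and 3.03 in OT-I, 2.74 and 3.01 in OT-II and 3.54 and 3.58 in F5 mice. It fell in OT-I (log2 fold change -1.16 ± 0.26), OT-II (-0.80 ± 0.25) and F5 (-0.88 ± 0.25), with edgeR adjusted p of 0.00202, 0.0196 and 0.0285. Without TMM scaling the call held in OT-I (-1.50) but not in OT-II (-1.07, edgeR adjusted p = 0.0548) or F5 (-0.77, edgeR adjusted p = 0.245). In AND mice it was at 4.34 and 16.6, and its value of -0.20 ± 0.24 did not pass and turned to 0.79 without TMM scaling. AND r2, the mouse with 16.6, was the lane with the lowest antibody depth. Of the 3 antibodies to gamma chain V regions, TCRVr3 rose in AND (0.67 ± 0.17, edgeR adjusted p = 0.00566). It was at 21.7 and 52.3 per 10000 in AND against 11 to 15.5 in diverse mice. TCRVr1.1-Cr4 (1.33 and 2.22, against at most 1.17 in diverse mice), TCRVr2 (6.73 and 17.2, against at most 6.72) and TCRr-d (15.7 and 27.8, against at most 12.6) were also above the diverse range in AND mice, with the higher value in AND r2. Without TMM scaling all 4 were called higher in AND (0.82 to 1.59), and the part of the low antibody depth of AND r2 was not tested. Of the others, TCRVr1.1-Cr4 and TCRVr2 fell in OT-I (-0.68 ± 0.19 and -0.55 ± 0.20), and TCRVr2 did not pass without TMM scaling (-0.91, edgeR adjusted p = 0.0512).

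CD4 and CD8 SP cells were gated on the antibodies alone, as TCRB-high cells positive for CD4 or CD8a only. The gates held 915 to 1490 CD4 SP and 207 to 352 CD8 SP cells per wild-type mouse. The CD4 SP list (Cd4, Zbtb7b, Cd40lg, St8sia6, Tnfsf8) summed to 362 to 500 CPM in CD4 SP and 20.6 to 66.9 CPM in CD8 SP cells. The CD8 SP list (Cd8a, Cd8b1, Runx3, Nkg7, Itgae) summed to 137 to 484 and 2844 to 3470 CPM. A list of DP markers was at 33.3 to 510 CPM in CD4 SP and 30.3 to 551 CPM in CD8 SP cells, against 1363 to 4795 in DP cells. Erythrocyte markers were at 0 to 973 CPM in CD4 SP and 0 to 17.2 CPM in CD8 SP cells. In wild-type mice 8 members passed the filter and 4 were called, 2 higher and 2 lower in CD4 SP cells. In the same comparison 34.7% of 9193 genes were called (16.2% higher, 18.4% lower), and the 4 of 8 members stand beside that share. The median log2 fold change was -0.49 for the 6 Trav members, 0.38 for the 2 Trbv members and 0.002 for all genes.

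Trav14d-3-dv8, a Vα2 family member, was higher in CD4 SP cells. In WT r1 to r5 it was at 11.3, 7.5, 19.3, 9.07 and 16.9 CPM in CD4 SP cells and at 4.71, 3.23, 6.25, 4.68 and 2.71 CPM in CD8 SP cells. It was higher in CD4 SP cells of all 5 mice, and the ranges did not overlap (log2 fold change 1.39 ± 0.22, edgeR adjusted p = 2.12e-05, mouse as block). The call held with the locus as library size (1.24). Trav14-2, of the same family, was not called. It held 5.6%, 3.77%, 2.82%, 2.8% and 7.47% of Trav UMIs in CD4 SP cells of WT r1 to r5. In CD8 SP cells it held 11.7%, 5.13%, 3.24%, 5.66% and 2.9%, more than in CD4 SP cells in all mice but WT r5.

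Trav16 went the other way. It was at 3.16, 2.62, 2.42, 2.19 and 4.96 CPM in CD4 SP and 16.5, 2.42, 5.36, 8.57 and 12.7 CPM in CD8 SP cells of WT r1 to r5. It was lower in CD4 SP cells in 4 of 5 mice, WT r2 being the exception (-1.55 ± 0.29, edgeR adjusted p = 0.000144). Its near copy Trav16n was at 2.16, 5.75, 6.32, 4.24 and 9.09 CPM in CD4 SP and 1.77, 9.7, 9.82, 5.85 and 28.9 CPM in CD8 SP cells. It was lower in CD4 SP cells in all mice but WT r1, and the ranges overlapped (-0.87 ± 0.23, edgeR adjusted p = 0.00425).

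Among the beta segments Trbv2 was higher in CD4 SP cells, at 4.49, 8.24, 4.65, 12.1 and 20.7 CPM against 2.94, 1.21, 1.79, 5.85 and 12.7 CPM in CD8 SP cells. The direction was the same in all 5 mice although the ranges overlapped (1.13 ± 0.25, edgeR adjusted p = 0.00108). With the locus as library size the value was 0.85 and did not pass (edgeR adjusted p = 0.108). Without the mouse as a block, the count of calls was 1, and without WT r5 it was 3.

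A related contrast in other animals was that of CD4 SP cells of MHCI-/- mice against CD8 SP cells of MHCII-/- mice. MHC class I is needed for CD8 SP and MHC class II for CD4 SP cells. Each lineage thus came from 1 genotype, so lineage and MHC genotype cannot be told apart. Here 40 members were tested and 7 called (6 higher and 1 lower in CD4 SP), against 37.4% of 10720 genes (18.6% higher, 18.7% lower). DESeq2 called 1 member in this comparison. Trav14d-3-dv8 was at 13.9 and 12.6 CPM in MHCI-/- CD4 SP cells and 3.61 and 2.76 CPM in MHCII-/- CD8 SP cells (2.02 ± 0.22, edgeR adjusted p = 1.04e-05). Trav16n was at 5.54 and 3.78 against 11.9 and 6.27 CPM (-0.98 ± 0.30, edgeR adjusted p = 0.0201). Neither pair of ranges overlapped.

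Trbv2 was again higher in CD4 SP cells, at 7.21 and 6.94 against 4.7 and 3.83 CPM (0.69 ± 0.23, edgeR adjusted p = 0.0281). The other calls, higher in MHCI-/- CD4 SP cells, were Trav9n-4 (1.75), Trav10 (1.48), Trav14-3 (1.28) and Trav4-4-dv10 (1.18). All Trav segments together were also higher there, at 126 and 118 CPM against 88.9 and 77.5 CPM, and 24 of 31 tested Trav members had positive values (median 0.50, beside 0.51 for 9 Trbv members and 0.015 for all genes). With the locus as library size 4 members were called, among them Trav14d-3-dv8 (1.51) and Trav16n (-1.49), and the value of Trbv2 was 0.30 and did not pass (edgeR adjusted p = 0.654).

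Of the 4 wild-type calls, 3 (75%) were among the 7 in MHC-deficient mice (42.9% of those), namely Trav14d-3-dv8, Trav16n and Trbv2, each with the same direction. Over all genes, 2215 were called in both, 69.5% of the 3186 wild-type calls and 55.3% of the 4004 calls in MHC-deficient mice. Trav16 was not: its log2 fold change there was 0.29 and did not pass. Of 8 members tested in both, 3 had the same sign, beside 77.4% of the 9193 genes tested in both. In DP cells Trav16n held 5.94% and 4.38% of Trav UMIs in MHCI-/- and 8.07% and 8.82% in MHCII-/- mice. There Trav14d-3-dv8 held 4.08% and 3.23% against 2.69% and 3.74%, and Trbv2 19% and 22.4% against 21.1% and 22.1% of Trbv UMIs. The part of the MHC genotype in the SP values was not tested.

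**Figure D3:**
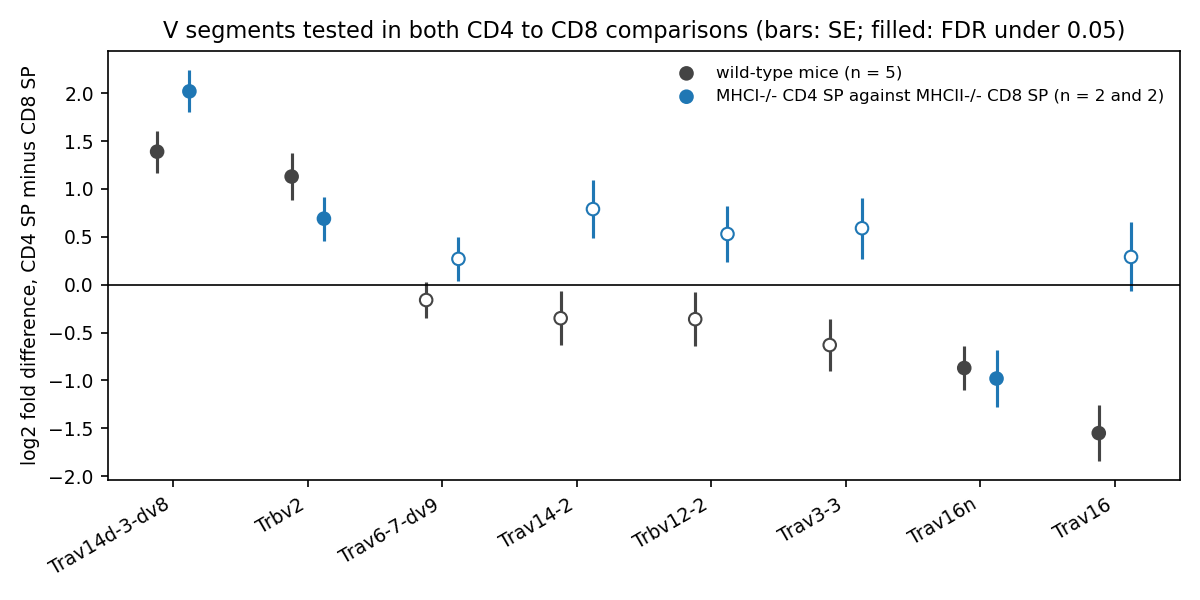
Log2 fold difference between CD4 SP and CD8 SP cells (vertical axis, bars are SE) for the 8 V segments tested both in 5 wild-type mice (grey) and in MHCI-/- against MHCII-/- mice (blue). Filled points pass an adjusted p of 0.05: Trav14d-3-dv8 (1.39 and 2.02), Trbv2 (1.13 and 0.69) and Trav16n (-0.87 and -0.98) in both, and Trav16 (-1.55) in wild-type mice.

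At the protein level, the share of Vβ5-positive cells was higher among CD8 SP cells in each wild-type mouse. In WT r1 to r5, 4.26%, 4.7%, 4.39%, 5.96% and 5.46% of CD4 SP cells were positive for TCRVb5.1_5.2, and 5.8%, 8.52%, 9.97%, 13.9% and 12.9% of CD8 SP cells. The share was lower in CD4 SP cells in 5 of 5 mice, with means of 4.95% ± 0.731 and 10.2% ± 3.29 (SD, n = 5), a difference of -5.26 percentage points (two-sided paired exact permutation p = 0.0625, which is the lowest value possible with 5 mice). MHCI-/- CD4 SP cells had 5.15% and 4.08%, and MHCII-/- CD8 SP cells 6.42% and 7.2%. DP cells with high TCRB, a split chosen after seeing the data, had 7.33% and 8.81% in MHCII-/- mice, above the CD8 SP cells of the same mice. In wild-type mice such DP cells had 2.92% to 7.42%, below the CD8 SP cells of each mouse. Of the few CD4 SP cells of MHCII-/- r1 and r2, 3.23% (2 of 62) and 9.17% (10 of 109) were positive, in r2 more than of its CD8 SP cells. As a background, 0% to 1.23% of SP cells of AND and F5 mice were positive, except AND r2, with 10.3% of CD4 SP cells and 2 of its 11 CD8 SP cells. Gates with fewer than 20 cells were otherwise not used.

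For TCRVb8.1_8.2 a positive and a negative population could be separated in the first and second experiments alone. In WT r1 to r3, 19.3%, 12.8% and 14.7% of CD4 SP cells and 18.4%, 13.4% and 11% of CD8 SP cells were positive, means of 15.6% ± 3.36 and 14.2% ± 3.77 (SD, n = 3). The difference of 1.38 ± 2.14 points had no constant direction (two-sided paired exact permutation p = 0.5, lowest possible 0.25). MHCI-/- CD4 SP cells had 16.1% and 17%, and MHCII-/- CD8 SP cells 10.8% and 10.4%. In AND r2, 41.4% of CD4 SP cells passed this threshold, against 1.95% in AND r1.

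In OT mice, 96.5% to 99.3% of OT-I SP cells and 97.7% and 97.3% of OT-II CD4 SP cells were positive for the Vβ5 antibody. Of the few OT-II CD8 SP cells, 7 of 24 (29.2%) and 11 of 26 (42.3%) were positive. Of DP cells 63.6% and 58.6% were positive in OT-I and 20.7% and 18.3% in OT-II mice, against 0.759% and 1.1% in unsorted wild-type mice. The SP gates required high TCRB and the DP gate did not, so these shares are of unlike populations. Among the DP cells with high TCRB (558 and 478 cells in OT-I, 706 and 207 in OT-II), 94.4% and 90.4% were positive in OT-I and 51.1% and 54.1% in OT-II mice, against 2.92% and 3.66% in the unsorted wild-type mice. This split of the DP cells was chosen after seeing the data.

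**Figure D4:**
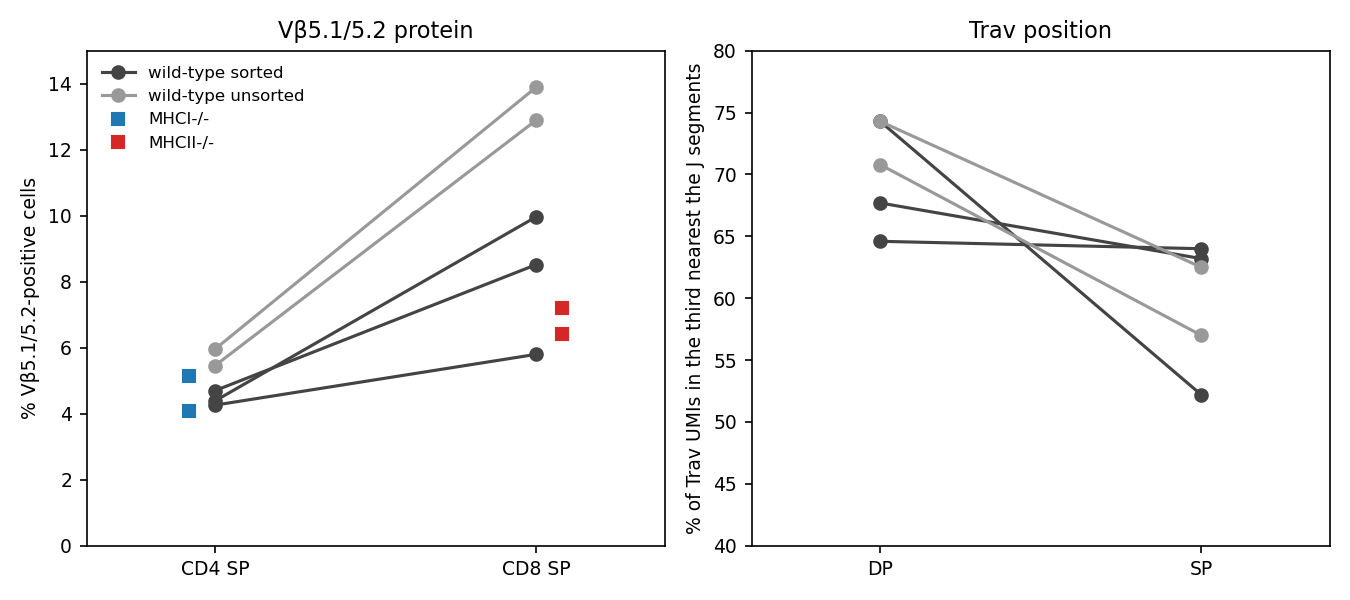
Left, share of TCRVb5.1_5.2-positive cells (%) among CD4 SP and CD8 SP cells, with a line for each of the 5 wild-type mice and squares for MHCI-/- and MHCII-/- mice; right, share of Trav UMIs (%, axis from 40 to 80) in the third of the locus nearest the J segments in DP and SP cells of the same wild-type mice. Every line rises from CD4 SP to CD8 SP (means 4.95% and 10.2%) and falls from DP to SP (means 70.3% and 59.8%). The SP gates required high TCRB and the DP gate did not.

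Between DP and SP cells of wild-type mice, 12 of the 44 members tested were called, 2 higher and 10 lower in SP cells, against 57.4% of 10870 genes (26.5% higher, 30.9% lower). Of the 14 Trbv members 6 were called lower (Trbv2, Trbv12-1, Trbv12-2, Trbv13-1, Trbv13-2 and Trbv26), and with the Trav and Trbv UMIs as library size only Trbv12-1 of these was. Of the 30 Trav members 2 were called higher and 4 lower. All 14 Trbv members tested had negative values (median -0.61), the 30 Trav members a median of 0.04 and all genes one of -0.037. Trbc1 and Trbc2, the constant segments of the beta chain, fell as well (-1.01 and -0.817, both called). With that library size, 2 members were called in all. WT r1 to r3 had been sorted for TCRB, which the DP cells of WT r4 and r5 had not, so their DP cells are not the same population. The SP gates required high TCRB and the DP gate did not, so SP and DP cells differ in TCRB as well as in stage.

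Trbv12-1 fell under both scalings. It was at 0.518, 0.668, 0.525, 1.7 and 2.27 CPM in SP and 1.82, 3.51, 2.51, 3.99 and 12.5 CPM in DP cells of WT r1 to r5, lower in SP cells in every mouse (-1.74 ± 0.25, edgeR adjusted p = 0.000504, and -1.08 with the locus as library size). Its neighbour Trbv12-2 fell by 0.60 on the log2 scale relative to all RNA but was at 0.07 relative to the locus. Trbv26 (-0.86), Trbv2 (-0.84), Trbv13-1 (-0.78) and Trbv13-2 (-0.61) were called relative to all RNA alone.

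Trav14d-3-dv8 was higher in SP than in DP cells under both scalings. It was at 9.85, 6.49, 15.5, 7.87 and 12.5 CPM in SP and 4.76, 7.03, 4.11, 2.2 and 4.86 CPM in DP cells. It was higher in SP cells in 4 of 5 mice, WT r2 being the exception (1.41 ± 0.28, edgeR adjusted p = 0.00267, and 1.39 with the locus as library size). Trav14n-3, a near copy, was also higher (1.11 ± 0.34), and Trav17 (-1.54), Trav21-dv12 (-1.34), Trav15-1-dv6-1 (-1.02) and Trav4-3 (-0.70) were lower. Without WT r3 or WT r4 the number of called members was 6 or 7.

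Ordered along the chromosome, the 42 Trav members nearest the J segments held 64.6%, 67.7%, 74.3%, 74.3% and 70.8% of Trav UMIs in DP cells of WT r1 to r5 and 64%, 63.2%, 52.2%, 62.5% and 57% in SP cells. The share was lower in SP cells in all 5 mice, with means of 59.8% ± 5.07 and 70.3% ± 4.22 (SD, n = 5). The difference of -10.5 percentage points ranged from -0.566 (WT r1) to -22.1 (WT r3) and had the smallest two-sided p that 5 pairs allow in an exact permutation test, 0.0625. It rested in part on Trav14d-3-dv8, which had the larger increase of the 2 called higher in SP cells. Without that segment, an alternative chosen after seeing the data, the means were 66% and 73%, a difference of -6.95 points that was lower in SP cells in 4 of 5 mice (two-sided exact permutation p = 0.188), and in WT r1 it turned to 70.9% in SP against 67.1% in DP cells. Trav14d-3-dv8 and Trav14n-3, the members higher in SP cells, lie in the middle of the locus, while Trav17, Trav21-dv12, Trav15-1-dv6-1 and Trav4-3, lower in SP cells, lie in the third nearest the J segments. The SP gates required high TCRB and the DP gate did not. Among DP cells with high TCRB, the share nearest the J segments was 49.8%, 58.1%, 55.8%, 65.9% and 64.2% in WT r1 to r5. It was below the SP share in WT r1 and r2 and above it in WT r3 to r5. No test was made of this split of the DP cells, so the difference between DP and SP cells cannot be told apart from that in TCRB.

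The antibodies and the segments were then compared in the same SP cells of diverse mice, by the single Trbv segment whose UMIs a cell carried. Of cells with Trbv12-1, 37 of 50 were TCRVb5.1_5.2-positive (74%, 95% Wilson interval 60.4% to 84.1%), against 5.75% of all SP cells. Of cells with Trbv12-2, which encodes the other Vβ5 chain, 44 of 261 were positive (16.9%, 12.8% to 21.9%). Cells with Trbv2 were positive in 1.11% (0.432% to 2.81%). The intervals cover counting error only, and cells of a mouse share their library.

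Cells with Trbv12-2 were also found among those positive for the Vβ8 antibody. Of cells with Trbv12-2, 76 of 224 (33.9%, 28% to 40.4%) were TCRVb8.1_8.2-positive, beside 71 of 182 with Trbv13-2 (39%, 32.2% to 46.3%) and 21 of 39 with Trbv13-3 (53.8%, 38.6% to 68.4%). All SP cells of these mice were positive in 14.7%. Cells with Trbv13-1, whose Vβ8.3 the antibody does not read, were positive in 6.06% (2.38% to 14.6%), and 0 of 29 cells with Trbv12-1 were (upper Wilson bound 11.7%).

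**Figure D5:**
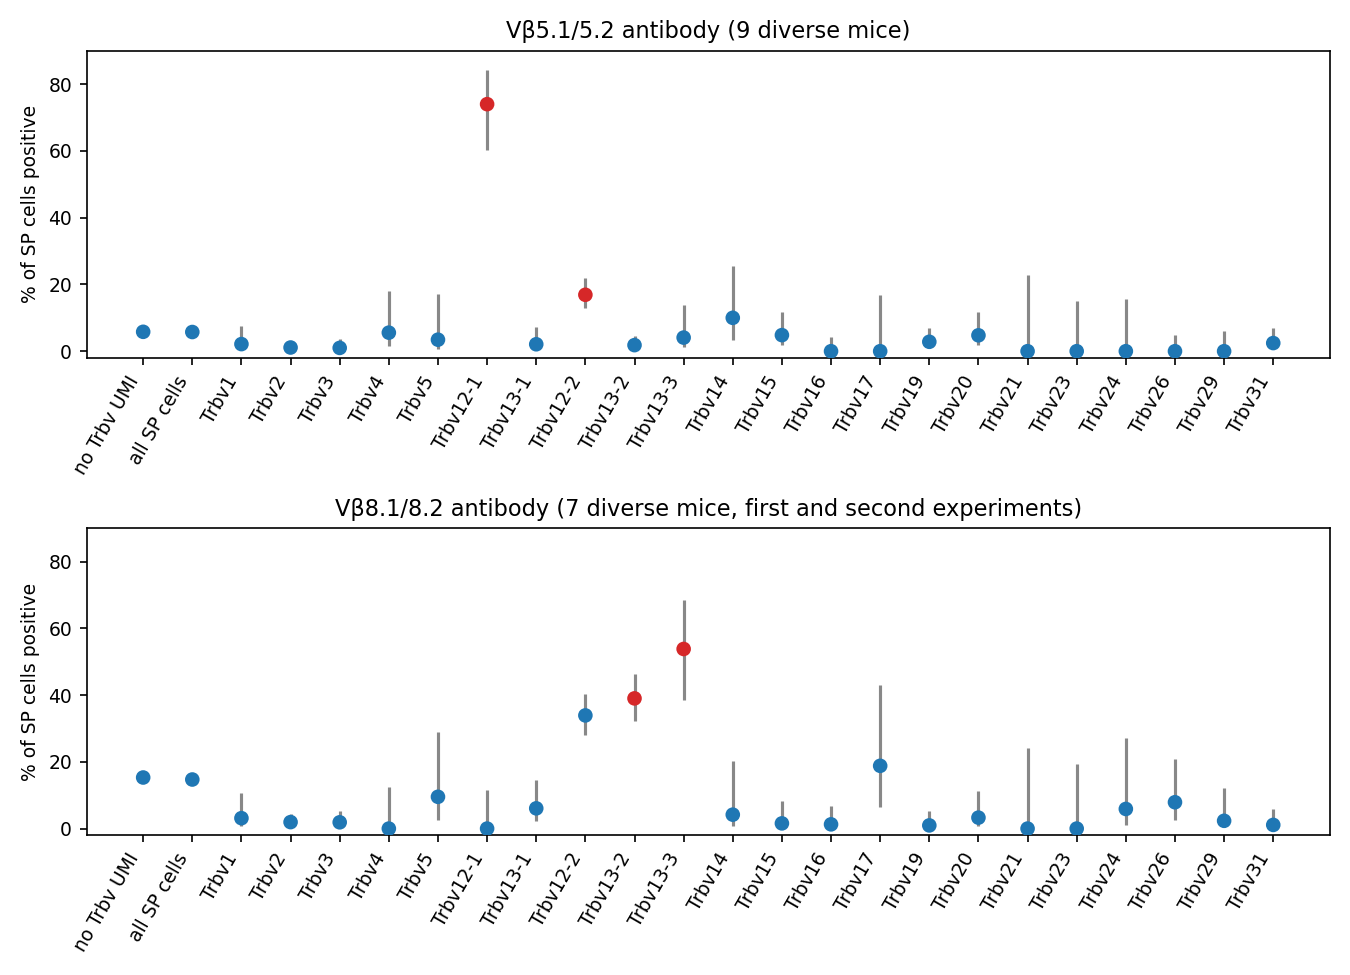
Share of SP cells (%, bars are 95% Wilson intervals) positive for TCRVb5.1_5.2 (top) and TCRVb8.1_8.2 (bottom), by the single Trbv segment found in the cell, with cells without a Trbv UMI and all SP cells at the left and the antibody's own targets in red. Trbv12-1 (74%) and Trbv12-2 (16.9%) stand above other segments at the top, and Trbv13-3 (53.8%), Trbv13-2 (39%) and Trbv12-2 (33.9%) at the bottom.

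Summed per mouse, TCRVb5.1_5.2-positive SP cells differed from negative cells in 1.06% of 8748 genes (0.229% higher, 0.834% lower), and of 4 members tested Trbv12-2 was called. Its level in positive cells had a lowest value of 0, in WT r1, a median of 13 and a highest of 20.9 CPM in WT r3 over 9 mice, against 2.49 to 7.24 CPM in negative cells. It was higher in positive cells of all mice but WT r1 (1.70 ± 0.29, edgeR adjusted p = 0.000292, 53 and 267 UMIs). Without WT r3, 0 members were called by edgeR (1 at an unadjusted p under 0.05), and by DESeq2 0 with all 9 mice (2 at an unadjusted p under 0.05). Trbv12-1 did not pass the filter and is described by its share of Trbv UMIs, 28.2% in positive cells and 0.805% in negative cells. Cd8a and Cd8b1 were also higher in positive cells. The classes pooled both SP gates, and in wild-type mice 10.2% of CD8 SP but 4.95% of CD4 SP cells were positive. Antibody class and lineage can therefore not be told apart in these calls.

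TCRVb8.1_8.2-positive SP cells differed in 0.104% of 9612 genes (0.0208% higher, 0.0832% lower), and 3 of the 10 genes called were members, out of 11 tested (median log2 fold change 0.02 for 8 Trav and 1.48 for 3 Trbv members). Trbv13-2 was at 5.45 to 14 CPM (median 9.06) in positive and 1.82 to 3.32 CPM in negative cells over 7 mice, with no overlap (1.88 ± 0.24, edgeR adjusted p = 1.95e-05). Trbv12-2 was at 5.03 to 19.4 CPM (median 9.32) in positive and 2.55 to 6.33 CPM in negative cells, higher in each of the 7 mice (1.48 ± 0.22, edgeR adjusted p = 0.000198). Trbv2 was at 0 to 1.56 CPM in positive and 4.22 to 8.31 CPM in negative cells (-3.15 ± 0.42, edgeR adjusted p = 2.14e-05). Of Trbv UMIs in positive cells, 36.5% were Trbv12-2 and 35.6% Trbv13-2, whose gene starts 2.03 kb downstream of Trbv12-2. Whether transcripts from a rearranged Trbv13-2 that start upstream of it were counted under Trbv12-2 was not tested, so Trbv12-2 UMIs, in OT-II and diverse mice alike, cannot be read as Vβ5.1 use alone. Trbc1 and Trbc2 were slightly lower in positive cells (-0.176 and -0.132).

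Zbtb16 is a transcription factor of invariant natural killer T cells, whose receptor carries Trav11, and of other innate-like T cells. Among TCRB-high cells of diverse mice, 92 had a Zbtb16 UMI, from 7 mice, and 4 of the 10 members tested were lower in them, against 14.2% of 9389 genes called (5.53% higher, 8.68% lower). Counts behind these calls were few, with 39 Trav and 33 Trbv UMIs in the 92 cells. Trbv2 had 2 UMIs there and 928 in the other TCRB-high cells of the same 7 mice (7.49-fold lower per RNA UMI, 95% exact interval of counting error 2.07 to 61.9), Trav14d-3-dv8 1 and 663 (10.7-fold, 1.91 to 423) and Trav16n 2 and 744 (6.01-fold, 1.66 to 49.7). Trav14-2 was at 0 and at least 2.07-fold lower, against a floor of 3 counts. By edgeR 0 were called without WT r4 (5 at an unadjusted p under 0.05) and 0 with the locus as library size (1 unadjusted), and by DESeq2 0 were called (3 unadjusted). The 92 cells also differed in other receptor genes. The gamma constant segments Tcrg-C1, Tcrg-C2 and Tcrg-C4 were higher in them (4.54, 4.62 and 5.31), while Trac (-0.787), Trbc1 (-1.67), Trbc2 (-0.992) and the delta constant segment Trdc (-2.18) were lower, as were Cd4 (-1.72), Cd8a and Cd8b1 (both -3.59), all called by edgeR. The part of cells with gamma chain transcripts in the lower V segments was not tested. Trav11 was found in 6 of the 92 cells (6.52%, 95% Wilson interval 3.02% to 13.5%), in WT r4 and both MHCII-/- mice, and in 23 of 19718 cells without Zbtb16 (0.117%, 0.0777% to 0.175%). This difference was not tested, and 0.394% of the windows of Trav11 are its own.

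Of 19 listed genes of receptor assembly and signalling (constant segments, CD3 chains, Rag1, Rag2, Dntt, Ptcra, Themis and the coreceptors), 6 were higher and 2 lower in AND, 2 and 2 in F5, 4 and 5 in OT-I, and 7 and 2 in OT-II mice, where 6.82%, 7.45%, 12.3% and 16.0% of all genes were called. Trdc and Tcrg-C1, constant segments of the delta and gamma chains, were called higher in all 4, Tcrg-C1 in F5 at an edgeR adjusted p of 0.0495. Tcrg-C1 was at 26.6 and 41 CPM in F5 and 62.1 in AND r2, below unsorted WT r5 (72.7). The other fixed mice were at 83.3 to 174. It was at 26.4 in unsorted WT r4 and 7.98 to 11.3 in the sorted diverse mice, so its calls cannot be told apart from the sort. Trdc was at 140 to 541 CPM in fixed and 56.8 to 116 CPM in diverse mice, and the ranges did not overlap. Within wild-type mice it averaged 115 CPM in DP cells, 16.5 in CD4 SP and 22.7 in CD8 SP cells, and the part of the share of DP cells in the fixed mice was not tested. The TCRr-d antibody was lower in OT-I mice (log2 fold change -1.11, edgeR adjusted p = 0.000127) and was not called in the other 3 genotypes with TMM scaling. Without TMM scaling it was called higher in AND (1.03, edgeR adjusted p = 0.00239). Rag1 was lower in AND and F5, which are Rag1-/- by genotype, and in OT-I, and higher in OT-II (1.43, edgeR adjusted p = 0.0348). Yet its 417 and 769 CPM in OT-II mice were below those of both unsorted wild-type mice of the same experiment (978 and 1602 CPM), and above those of the sorted diverse mice (60.9 to 183 CPM), so that this call cannot be told apart from the sort. In wild-type SP cells 3 were higher (Trac, Cd3d, Cd3g) and 10 lower than in DP cells, beside 57.4% of all genes called. In CD4 SP cells 4 of 14 tested were higher, among them Trac (0.208), and 7 lower than in CD8 SP cells, beside 34.7% of all genes.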

How the data were processed

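Thymocytes of 17 mice were profiled by CITE-seq in 19 lanes. The deposited values were raw UMI counts per gene or antibody and cell, made by the authors with Cell Ranger 3.1.0 per the labels (mm10/GRCm38, 10x 3′ kit). Cells with up to 15% mitochondrial UMIs, at least 200 genes, 1000 to 10000 antibody UMIs and at least 70 of 111 antibodies were kept, and doublets were removed at 0.8% per 1000 barcodes (4.42% of passing cells). CD4, CD8a and TCR beta gates were set by Otsu's threshold on log2 antibody values of wild-type cells within each experiment. Vβ-positive cells lay above the valley between both modes, which was not found for Vβ8 in the third experiment.

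Counts were summed per mouse and gate and fitted across all genes with edgeR 4.0.16 (R 4.3.3, TMM, quasi-likelihood test, Benjamini-Hochberg adjustment, threshold 0.05). Each fixed genotype was set against the mean of the diverse groups in 1 fit over all genotypes. Comparisons of gates within mice had the mouse as a block. SE is the fold change divided by the root of the F statistic. Single values were compared with exact permutation tests over mice (scipy 1.17.1), and intervals are Wilson 95% intervals. Fold bounds against 0 UMIs used a floor of 3 counts over the group. Members were named by rule: the transgene families, the Trbv12 and Trbv13 segments, the 8 Trav and 6 Trbv segments with the smallest p among those called, and the 5 of each locus with most UMIs in wild-type mice. Trav11 was added for its known place in iNKT receptors. The fits were tested on simulated data. Alternatives were DESeq2 1.42.0, no TMM, no count filter, the Trav and Trbv UMIs as library size, other gates, same-site controls and leaving out each mouse. The members and lists were chosen with earlier results of these data known. As the labels give replicates as separate mice, p-values measure the spread between mice. In AND and F5 this spread includes that between the first and second experiments. In the third experiment it includes that between the runs of title numbers.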

Additional observations from a re-analysis of the deposited data

Results flagged for a closer look

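Among the 5 wild-type mice, WT r5 stood apart from the others in 3 measures. Trav6-7-dv9 held 16.6% of Trav UMIs there, against at most 9.63% in the other wild-type mice. Trbv26 held 12.8% of Trbv UMIs, against at most 4.83%. The inverse Simpson index of Trav segments was 17.2, against at least 31.2. In each case the gap to the next mouse, divided by the range of the group, passed Dixon's 95% critical value (0.862, 0.717 and 0.761). In all, 29 groups of values were examined, and chance marks about 1 in 20. Lanes of WT r5 also had the lowest median RNA UMIs per cell (1552 and 1501). The part of depth in these values was not tested.

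OT-I and OT-II mice lay on opposite sides of the 9 diverse mice for both Trbv12 segments. Trbv12-1 held a mean of 98.9% of Trbv UMIs in OT-I and 0.82% in OT-II mice, and Trbv12-2 held 0.283% and 63.6%. This difference between the genotypes was not tested.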

How the results depend on the processing

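Of 434 values of 58 named results under alternatives, 355 kept their direction and their side of the threshold, 73 lost and 1 gained the call, 2 reversed and 3 values or counts moved. Both reversals came with the Trav and Trbv UMIs as library size: Trav6-7-dv9 in AND (0.75) and Trbv12-2 in SP against DP cells (0.07). Not counted among these 2, the values of Trav14d-3-dv8 and TCRVb8.1_8.2 in AND, not called in the main fit, also changed sign. The first did so with that library size and the second without TMM. With that library size, 2 members were called in SP against DP, 3 for Vβ5, 0 for Zbtb16 (1 at an unadjusted p under 0.05 by edgeR) and 4 in MHCI-/- against MHCII-/- cells. With same-site controls 10 were called in OT-I and 0 in OT-II (21 unadjusted by edgeR, 34 by DESeq2 with all controls), and 10 in OT-II with TCRB-high cells. With no filter except 1 UMI, 7 were called in wild-type CD4 against CD8 SP, 5 for Vβ5, 7 for Vβ8, 9 for Zbtb16 and 11 in MHC-deficient mice. DESeq2 called 0 for Vβ5 (2 unadjusted), 0 for Zbtb16 (3 unadjusted) and 1 in MHC-deficient mice. Zbtb16 gave 1 call with mice of at least 10 such cells, an alternative chosen after seeing the data. Without the mouse as a block, CD4 against CD8 SP gave 1. The cause was not tested.

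Leaving out 1 mouse at a time, counts ranged from 35 to 71 in AND, 48 to 78 in F5, 35 to 68 in OT-I, 8 to 38 in OT-II, 3 to 5 in CD4 against CD8 SP, 6 to 13 in SP against DP, 0 to 2 for Vβ5, 3 to 4 for Vβ8, 0 to 5 for Zbtb16 and 5 to 10 in MHC-deficient mice. The genotype fits then rest on 1 mouse of a group, assumed to vary like the others. With a replicate block, 63, 72, 66 and 36 members were called in AND, F5, OT-I and OT-II (64, 74, 66 and 38 in the same mice without it), and 8 in MHC-deficient mice. Same-numbered mice deviated together between OT-I and OT-II (correlation 0.701) and not between the other groups with mice numbered 1 and 2 (-0.304 to 0.161), so the numbers were not taken as pairs over all groups. WT r4 and r5 were not in this check. By the numbers in the titles they deviated with the OT mice (0.661 to 0.739 over the 3 pairs of groups). A replicate block by those numbers, chosen after seeing the data, raised the same-site counts to 54 in OT-I and 24 in OT-II. The share of all genes called with that block is not given here. Leaving out Trav14d-3-dv8, chosen after seeing the data, changed the difference in the share nearest the J segments from -10.5 to -6.95 points.

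Precision was limited by depth, 218 to 3806 Trbv UMIs per mouse, and by 2 mice per genotype.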

Other observations

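In the third experiment, the second-numbered mouse of each genotype had a higher share of Trav6-7-dv9 among Trav UMIs than the first: 16.6% and 8.51% in wild-type, 36.2% and 16.2% in OT-I, and 17.4% and 9.27% in OT-II mice. The pseudogene Trav22 held a lower share in the second-numbered mouse, with 1.14% and 2.15%, 6.06% and 16.8%, and 1.77% and 4.07%. Median RNA UMIs per cell were 1501 to 3175 in lanes of the second-numbered mice and 2868 to 7205 in those of the first. These pairs were picked after their values were seen, and no test was made.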
